A study of Homo sapiens with 8 samples.

Results

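A2780 cells, an established human ovarian carcinoma line, were compared after 48 h of temsirolimus and without treatment. The comparison used the 2 arrays titled as 48 h of temsirolimus and the 2 arrays titled as untreated A2780, 4 of the 8 arrays of the series, and was read across 18417 genes. Temsirolimus is an ester of rapamycin. It binds FKBP12, the product of FKBP1A, and the pair inhibits mTORC1, the kinase complex that couples nutrients and growth factors to translation and cell growth. All cells grew in RPMI medium with fetal bovine serum, and the drug came from a DMSO stock. The labels give no dose, do not say whether the untreated cells received DMSO, and give no time in culture for them, so the part of vehicle and of culture time in any difference was not tested. The other 4 arrays were 2 of A2780CP20, a subline of A2780 that was not treated, and 2 titled as A2780 with temsirolimus for 24 h. Each array was an Affymetrix Human Gene 1.0 ST chip hybridized with biotin-labelled material from 1 total RNA sample.

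Values are log2 intensities as deposited, and a change is the mean at 48 h minus the mean of untreated cells, in log2 units, so 1 unit is 2-fold. Each change is given ± the standard error of a limma fit over all 8 arrays (n = 2 arrays per group), and a gene was called when its Benjamini-Hochberg adjusted p over all genes was under 0.05. The labels do not tie the arrays of a group to separate cultures; the p-values therefore reflect the spread between these arrays alone, and that spread may be technical. The 4 arrays had medians between 6.66 and 6.71. The pair at 48 h differed from each other with an SD of 0.166 over genes and the untreated pair with 0.181, against 0.201 to 0.244 between an array at 48 h and an untreated one. The arrays titled 24 h stood apart: they correlated at r = 0.951 to 0.952 with the 4 arrays compared here, which correlated with each other at 0.994 to 0.997 across genes (a description, since genes are not replicates). They enter this comparison through the shared estimate of the spread and through the choice of 1 probe set for genes with several. The count of called genes is also given from a fit without them, with the same probe sets. Of the epithelial and Mullerian markers in untreated cells, EPCAM at 5.56 and CDH1 at 5.32 lay below the array medians and not far above the lowest lower quartile of any array, 5.03, whereas PAX8 at 6.92 and SOX17 at 7.64, the highest of the list, lay above the medians. Signal over background is not known for these values.

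Several of the genes described here belong to the bone morphogenetic protein (BMP) pathway. BMP ligands bind pairs of type I and type II serine/threonine kinase receptors, which phosphorylate SMAD1, SMAD5 and SMAD9. These join SMAD4 and enter the nucleus, where they activate the ID genes and genes of their own inhibitors, among them SMAD6, SMAD7, BAMBI and noggin. ID proteins hold basic helix-loop-helix factors away from DNA, and in many cell types they mark a proliferative or undifferentiated state.

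After 48 h of temsirolimus 33 genes were called, 0.179% of the genes tested. Of these, 30 rose and 3 fell. The rises reached 5.35-fold in ID2, and the deepest fall was 2.58-fold in POU1F1. All 4 genes of the ID family rose, together with the BMP antagonist gene NOG, the inhibitory SMAD genes SMAD6 and SMAD7, and the receptor-regulated SMAD gene SMAD9. Most of the transcriptome stayed close to its untreated level, with 85.4% of genes within 0.25 log2 units of it. In all, 13 genes lay at least 2-fold higher and 2 at least 2-fold lower, of which 11 and 1 were called. The smallest called change was 0.67 log2 units, and the largest unadjusted p that passed was 8.76e-05. Of the 33 genes, 25 were called by limma without the arrays titled 24 h, and no other gene was. Leaving out any 1 of the 4 arrays left 4 to 6 calls, of which ID1, ID2, HEY1 and TUBA3FP were in all 4 such fits.

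**Figure D1:**
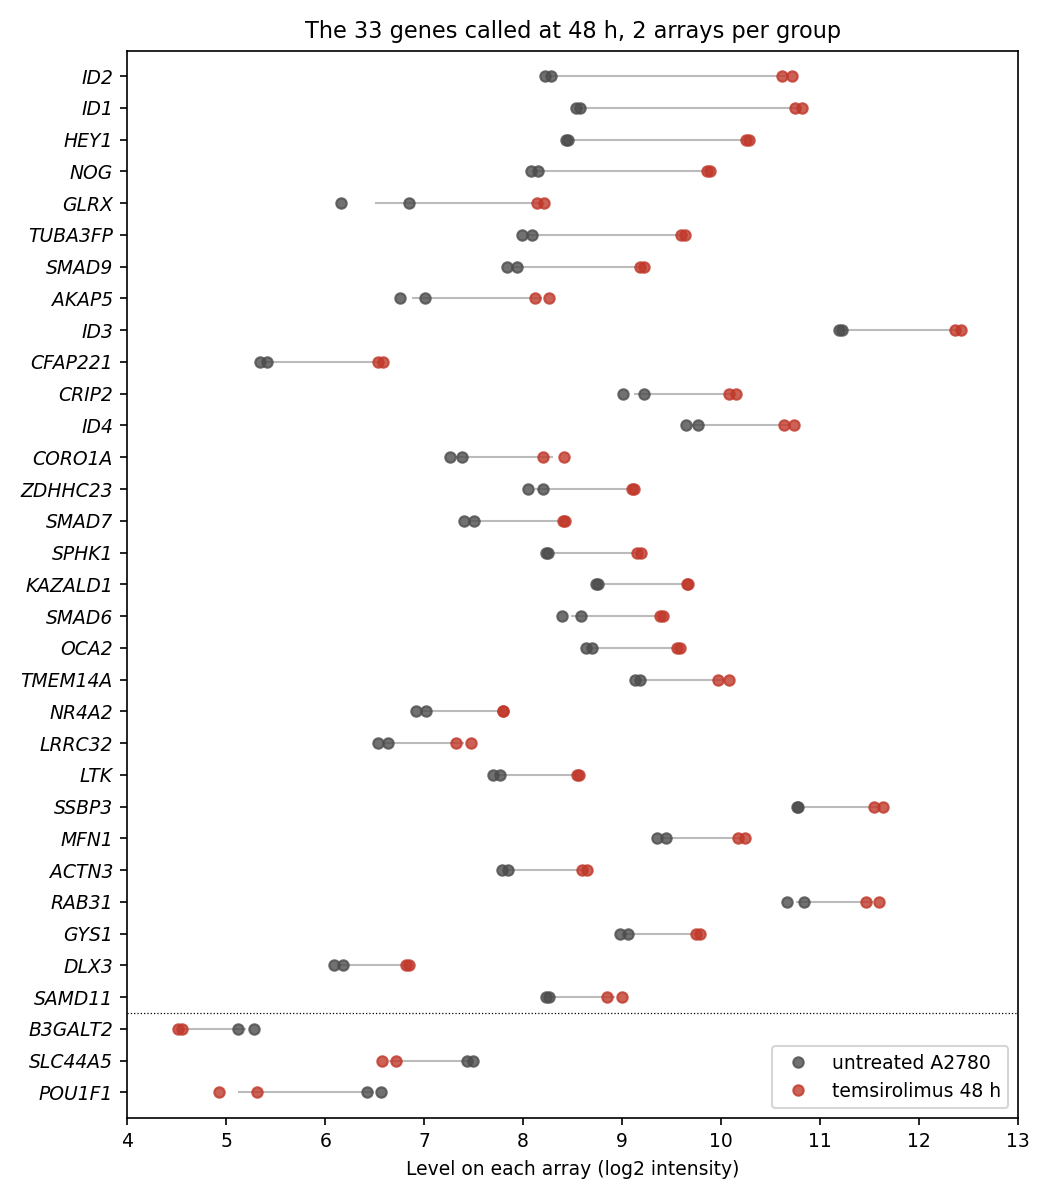
Level of each of the 33 called genes on the 2 untreated arrays (grey) and the 2 arrays at 48 h (red), in log2 intensity, ordered by change, with a line joining the group means and a dotted line between genes that rose and fell. The arrays of the 2 groups do not overlap for any of the 33 genes, which were called on these same arrays. Of all genes, 19.6% lay higher and 27.2% lower without overlap. The untreated arrays lie farthest apart for GLRX, at 6.16 and 6.85.

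**Figure D2:**
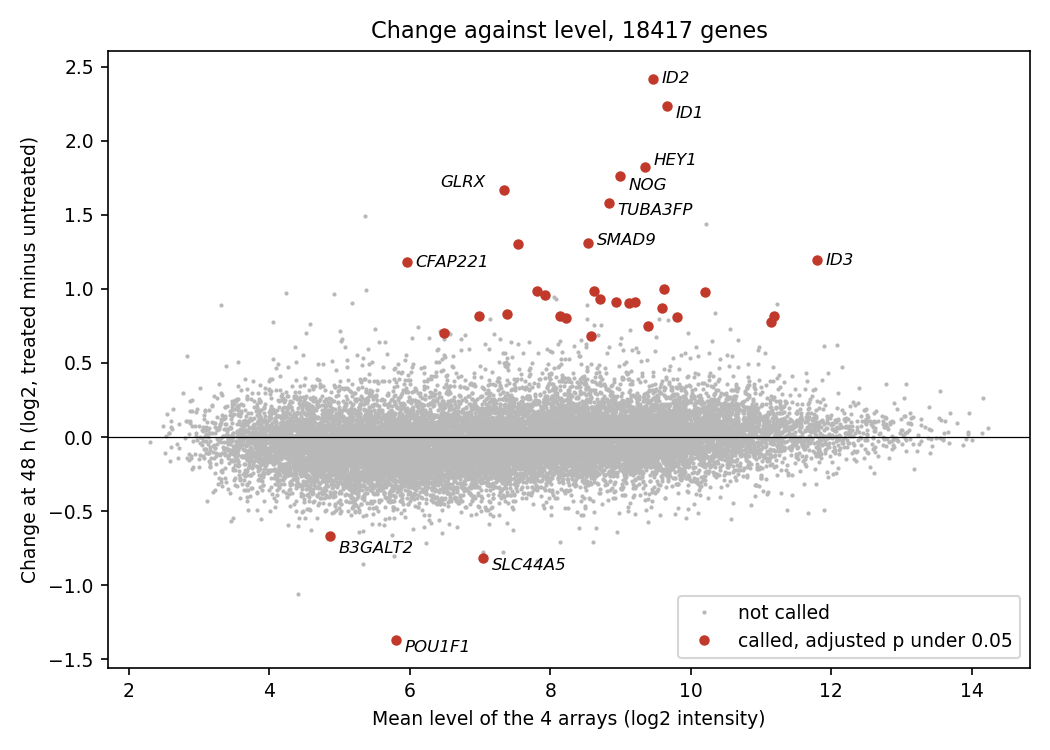
Change at 48 h (log2, treated minus untreated) against the mean level of the 4 arrays (log2 intensity) for 18417 genes, with called genes in red. The 30 called rises run from 0.68 for SAMD11 to 2.42 for ID2 and the 3 called falls from -0.67 to -1.37, and some genes that were not called have changes of like size, among them RAD21L1 at 0.96 and NAALADL2 at -0.86.

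ID2 and ID1 showed the largest rises of all genes tested, and ID3 and ID4 rose less. ID2 measured 8.22 and 8.28 on the untreated arrays and 10.62 and 10.72 at 48 h, a change of 2.42 ± 0.09 (adjusted p = 2.08e-05). ID1 measured 8.57 and 8.53 untreated and 10.82 and 10.75 at 48 h, a change of 2.24 ± 0.09 (adjusted p = 2.08e-05). For both genes each array at 48 h lay far above each untreated one, with the arrays of a pair close together. ID3 went from 11.22 and 11.19 to 12.43 and 12.37, a change of 1.20 ± 0.09 (adjusted p = 0.00212), and ID4 from 9.65 and 9.77 to 10.64 and 10.74, a change of 0.98 ± 0.10 (adjusted p = 0.0102). The basic helix-loop-helix E proteins that ID proteins bind gave no call: TCF3 changed by -0.16 ± 0.09, TCF4 by 0.22 ± 0.17 and TCF12 by -0.05 ± 0.16.

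The 4 ID genes lie on different chromosomes and rose together, so the 250 bases before each start site are shown, 5′ to 3′ on the gene's strand, from RefSeq on GRCh38.p14. Capitals mark CCAAT or ATTGG (the CCAAT box on either strand) and TATAAA or TTTATA (the TATA box on either strand), motifs chosen after the sequences were seen; a match is a description of letters, not of a bound site.
ID1 (chr20:31605039-31605288, + strand): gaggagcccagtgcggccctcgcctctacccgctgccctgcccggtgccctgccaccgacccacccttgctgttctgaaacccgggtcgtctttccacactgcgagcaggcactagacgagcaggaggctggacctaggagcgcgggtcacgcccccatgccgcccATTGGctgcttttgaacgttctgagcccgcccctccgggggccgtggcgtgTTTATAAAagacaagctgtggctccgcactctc
ID2 (chr2:8681806-8682055, + strand): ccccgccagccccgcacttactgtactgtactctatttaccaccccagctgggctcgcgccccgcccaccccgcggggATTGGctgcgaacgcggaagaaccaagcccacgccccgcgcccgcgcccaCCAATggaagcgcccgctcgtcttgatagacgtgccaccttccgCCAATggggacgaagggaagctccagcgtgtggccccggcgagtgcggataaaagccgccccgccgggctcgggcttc
ID3 (chr1:23559502-23559751, - strand): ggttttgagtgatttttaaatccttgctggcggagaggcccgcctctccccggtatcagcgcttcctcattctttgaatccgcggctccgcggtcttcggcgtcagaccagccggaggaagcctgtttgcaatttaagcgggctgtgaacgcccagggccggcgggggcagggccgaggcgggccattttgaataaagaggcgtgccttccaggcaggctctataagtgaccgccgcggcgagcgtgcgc
ID4 (chr6:19837120-19837369, + strand): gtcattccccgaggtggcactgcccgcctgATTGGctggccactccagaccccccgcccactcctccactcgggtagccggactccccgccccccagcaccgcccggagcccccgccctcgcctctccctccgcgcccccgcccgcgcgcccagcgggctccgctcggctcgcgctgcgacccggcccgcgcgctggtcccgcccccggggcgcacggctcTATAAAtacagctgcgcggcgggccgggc
ID1 holds a TATA box starting 31 bases before its start site, overlapped by the same motif on the other strand, and ID4 holds one at 29 bases. ID2 holds 3 CCAAT boxes, ID1 and ID4 hold 1 each, and ID3 holds neither motif. The windows are rich in G and C, at 62% for ID3, 66% for ID1, 69.2% for ID2 and 78.8% for ID4.

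RefSeq windows of 300 bases (250 before and 50 after a start site) were available for 26 of the 33 called genes, 35 windows in all, and were searched on both strands for 4 other motifs. GGCGCC, the SMAD1/5 element of BMP-responsive enhancers, was in 12 of the 35 windows (34.3%), of 9 genes, and in 19.2% of all 35116 windows. None of these 9 genes is an ID or SMAD gene, and AKAP5, CRIP2, GYS1 and SPHK1 are among them. HEY1, NOG and DLX3 had no window and were not searched. The windows were not matched for their share of G and C. CAGACA, a SMAD3/4 element, was in 11.4% of the windows of called genes and 16.9% of all. CACGTG, an E-box, was in 14.3% and 7.26%, with SMAD9 and B3GALT2 among its 4 genes, and CAGGTG, another E-box, was in 20% and 20.6%. CCAAT was in 31.4% against 34.6% of all, and TATAAA in 14.3% against 11.5%. The absence of a motif says only that its letters are not in this window.

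Genes that restrain or carry BMP signals rose beside the ID genes. NOG, which encodes the secreted BMP trap noggin, measured 8.15 and 8.08 untreated and 9.89 and 9.86 at 48 h, a change of 1.76 ± 0.17 (adjusted p = 0.0102). SMAD9, a SMAD that BMP receptors phosphorylate, went from 7.94 and 7.84 to 9.22 and 9.18, a change of 1.31 ± 0.15 (adjusted p = 0.0136). SMAD6 and SMAD7 encode the inhibitory SMADs, which block the receptors. SMAD6 measured 8.39 and 8.58 untreated and 9.38 and 9.41 at 48 h, a change of 0.91 ± 0.10 (adjusted p = 0.0102), and SMAD7 measured 7.40 and 7.50 untreated and 8.40 and 8.42 at 48 h, a change of 0.96 ± 0.10 (adjusted p = 0.0111). BAMBI, a decoy receptor, was not called at 0.66 ± 0.11 (adjusted p = 0.0874), although its arrays at 48 h, 7.58 and 7.66, lay above the untreated ones at 6.97 and 6.94.

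Among transcription factors, HEY1, a repressor that both Notch and BMP signals can activate, measured 8.43 and 8.45 untreated and 10.28 and 10.25 at 48 h, a change of 1.82 ± 0.08 (adjusted p = 6.41e-05). DLX3, a homeobox gene of skin, bone and placenta, rose from 6.09 and 6.18 to 6.82 and 6.85, a change of 0.70 ± 0.09 (adjusted p = 0.0252). Its homeobox relatives stayed near their untreated level, with DLX5 at 0.02 ± 0.12, MSX1 at -0.16 ± 0.15 and MSX2 at -0.06 ± 0.12, while DLX2 measured 0.36 ± 0.18 and was not called. NR4A2, an orphan nuclear receptor, rose by 0.83 ± 0.10 (adjusted p = 0.0228). SSBP3, a partner of LIM-domain transcription complexes, rose by 0.82 ± 0.09 (adjusted p = 0.0102) from 10.77 and 10.78 to 11.55 and 11.64.

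Of 33 measured BMP target and feedback genes, 10 were called higher and none lower, where 0.163% of all genes were called higher and 0.0163% lower. The list was written with earlier results of these data known and holds genes already seen to rise, so this count is no independent evidence of its direction. The median change over the list was 0.02, against -0.03 over all genes, so the rises lay in part of the list. GATA2 at 0.67 ± 0.11 and UNC5B at 0.58 ± 0.11, named after their values were seen, came next without a call, and HES1 (-0.02 ± 0.10), SKI (-0.05 ± 0.10), SMURF1 (0.00 ± 0.10) and CHRD (-0.08 ± 0.11) showed no call.

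Upstream of these genes, none of 28 measured BMP and activin ligands, receptors and transducers was called, where 0.179% of all genes were. Their median change was -0.08. The largest was BMPR2, the type II receptor gene, at 9.90 and 9.95 untreated and 10.68 and 10.85 at 48 h, a change of 0.84 ± 0.24 that missed the threshold (adjusted p = 0.274). All 4 of these values leave a clear gap between the groups, whereas the A2780CP20 arrays, which enter the shared spread, were at 9.31 and 10.23. BMPR2 was called in the fits with only the 4 arrays compared and without the A2780CP20 arrays, and in no other. BMP5, a ligand gene, measured 9.46 untreated and 8.94 at 48 h (-0.52 ± 0.14, adjusted p = 0.238). Values for the signal carriers were 0.07 ± 0.13 for SMAD1, -0.03 ± 0.12 for SMAD5 and -0.22 ± 0.09 for SMAD4, none of them called. FKBP1A, whose product binds temsirolimus and is also known to sit on type I receptors of this family, measured 0.18 ± 0.11, and its relative FKBP1B 0.28 ± 0.08 (adjusted p = 0.288).

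The related TGF-beta and Notch lists held a single call, HEY1. In 18 genes of TGF-beta signalling none was called and the median was -0.09. SKIL, a feedback repressor of SMADs, measured 10.60 and 10.73 untreated and 11.26 and 11.28 at 48 h, a change of 0.60 ± 0.10 (adjusted p = 0.0783). SMAD3 was at -0.32 ± 0.11 and TGFBR3 at -0.40 ± 0.14. In 22 Notch genes the other 21 were not called and none of them had an unadjusted p under 0.05, where 4.45% of all genes did so higher and 6.65% lower.

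Another set of called rises encodes enzymes and metabolic proteins. GLRX, a glutaredoxin that removes glutathione from proteins, measured 8.14 and 8.21 at 48 h but 6.16 and 6.85 untreated, a change of 1.67 ± 0.20 (adjusted p = 0.0194). Its size depended on which untreated array was used, from 1.32 without untreated replicate 1 to 2.02 without replicate 2. SPHK1, which makes sphingosine-1-phosphate, went from 8.23 and 8.25 to 9.15 and 9.19 (0.93 ± 0.10, adjusted p = 0.0132). GYS1, the muscle-type glycogen synthase, rose from 8.98 and 9.06 to 9.79 and 9.75 (0.75 ± 0.10, adjusted p = 0.0285). MFN1, which fuses mitochondrial outer membranes, rose by 0.81 ± 0.09 (adjusted p = 0.0111), and ZDHHC23, a palmitoyltransferase, by 0.98 ± 0.10 (adjusted p = 0.0102).

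Genes of scaffolds, the cytoskeleton and cilia formed a further set. AKAP5, which anchors protein kinase A at the membrane, measured 6.76 and 7.01 untreated and 8.12 and 8.26 at 48 h (1.30 ± 0.15, adjusted p = 0.0132). CFAP221, a protein of motile cilia, went from 5.41 and 5.34 to 6.58 and 6.53 (1.18 ± 0.11, adjusted p = 0.0102). The other 44 measured cilium and axoneme genes held no call. Among them 6 had an unadjusted p under 0.05, all higher, such as SPAG1 at 0.49 ± 0.15 and IFT57 at 0.32 ± 0.11. Of all genes, 4.45% lay higher and 6.65% lower at that p. Over all 45 members the median was -0.01, with 22 above 0 and 23 below. The actin-binding protein genes CORO1A (0.98 ± 0.11) and ACTN3 (0.80 ± 0.09) and the LIM-domain gene CRIP2 (1.00 ± 0.12) rose as well, with adjusted p between 0.0136 and 0.0141. The probe set named TUBA3FP, an alpha-tubulin pseudogene, rose from 7.99 and 8.09 to 9.64 and 9.60 (1.58 ± 0.10, adjusted p = 0.000433). Its sequence is close to that of the TUBA3 genes, so which transcript the probes read is uncertain.

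Most of the remaining rises were in genes of membrane and secreted proteins. KAZALD1, a secreted protein related to IGF-binding proteins, had arrays at 8.76 and 8.74 untreated and 9.66 and 9.67 at 48 h (0.92 ± 0.09, adjusted p = 0.0102). OCA2, a melanosome membrane protein, rose by 0.90 ± 0.09 and TMEM14A, a small membrane protein, by 0.87 ± 0.09 (adjusted p = 0.0102 for each). LTK, a receptor tyrosine kinase, rose by 0.82 ± 0.09 (adjusted p = 0.0141) and RAB31, a GTPase of vesicle traffic, by 0.78 ± 0.10 (adjusted p = 0.0243). LRRC32, which docks latent TGF-beta on the cell surface, rose by 0.82 ± 0.11 (adjusted p = 0.0396), and SAMD11 by 0.68 ± 0.10 (adjusted p = 0.0435), the pair of rises closest to the threshold.

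The called falls were few. POU1F1, the pituitary factor that drives growth hormone and prolactin genes, measured 6.42 and 6.56 untreated and 4.93 and 5.31 at 48 h, a change of -1.37 ± 0.14 (adjusted p = 0.0102). The POU1F1 values at 48 h lay on either side of 5.03, the lowest lower quartile of any array. Of 13 measured pituitary markers none was called, and the median change was -0.12. Without overlap 7 lay lower and 2 higher, against 27.2% and 19.6% of all genes. At an unadjusted p under 0.05, 2 lay lower and none higher, against 6.65% and 4.45%. The log2 of their summed intensity was 10.28 to 10.35 untreated and 10.26 to 10.28 at 48 h. SLC44A5, of the choline transporter-like family, went from 7.49 and 7.43 to 6.57 and 6.71 (-0.82 ± 0.12, adjusted p = 0.0468). B3GALT2, a galactosyltransferase of glycan synthesis, went from 5.28 and 5.12 to 4.55 and 4.51 (-0.67 ± 0.10, adjusted p = 0.0489), below the lowest lower quartile of 5.03, where the change can be understated. Without the arrays titled 24 h only POU1F1 of these 3 was called.

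Genes just outside the threshold carried changes of like size. CENATAC, a centrosomal and splicing protein gene, was at 0.80 ± 0.12 (adjusted p = 0.0505). DGAT2, which completes triglycerides, went from 8.43 and 8.27 to 9.13 and 9.08 (0.76 ± 0.12, adjusted p = 0.0645), and ELOVL4, which extends very long fatty acids, from 8.24 and 8.25 to 8.86 and 9.14 (0.76 ± 0.12, adjusted p = 0.0645). On the lower side CLK1, a kinase of splicing factors, went from 8.97 and 8.96 to 8.19 and 8.32 (-0.71 ± 0.10, adjusted p = 0.0537), and HNMT, which methylates histamine, from 6.47 and 6.72 to 5.91 and 5.85 (-0.72 ± 0.11, adjusted p = 0.0645). LIN7B (0.89 ± 0.17), CAPRIN2 (0.94 ± 0.27), NECAB1 (-0.84 ± 0.20) and TFPI (-0.71 ± 0.22) were not called either and had wider standard errors.

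The targeted pathway itself showed no call at the RNA level. None of 32 measured mTOR and PI3K-AKT components was called, with a median of 0.04. With 0.179% of all genes called, the lack of a call in a list of this size says little about the pathway. The same holds for the other lists without a call. At an unadjusted p under 0.05, 1 member lay higher and 1 lower, against 4.45% and 6.65% of all genes. PIK3R1, the regulatory subunit of PI3-kinase, measured 9.54 untreated and 9.16 at 48 h (-0.38 ± 0.11, adjusted p = 0.284), and RPS6KB2, an S6 kinase gene, 8.94 and 9.18 (0.24 ± 0.10, adjusted p = 0.423). RPTOR, the defining subunit of mTORC1, was at 0.02 ± 0.09 and RICTOR, that of mTORC2, at -0.08 ± 0.15. Phosphorylation, the level at which the drug acts, is not read by these arrays.

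Translation genes, which mTORC1 controls largely after transcription, moved little. The 25 measured cytosolic ribosomal protein genes had changes between -0.13 and 0.17 with a median of 0.04. The 22 translation factors had a median of 0.04 and the 28 ribosome biogenesis factors one of 0.04, with no call in any of the 3 lists. Mitochondrial ribosomal protein genes had a median of 0.12: of 22 genes, 12 lay higher with no overlap between arrays and 1 lower, against 19.6% and 27.2% of all genes, and none was called. MRPL9 (0.31 ± 0.09) and MRPL20 (0.26 ± 0.09) were the members with the smallest p. Proteasome subunits had a median of 0.09 over 28 genes, with 11 higher and 0 lower without overlap. At an unadjusted p under 0.05, 3 lay higher and none lower, against 4.45% and 6.65% of all genes. There was no limma call, with PSMD14 at 0.38 ± 0.12 leading.

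Amino acid genes included members on both sides. Of 31 ATF4 targets and amino acid genes, 2 lay higher and 7 lower at an unadjusted p under 0.05, none was called, and the median was near 0. Of all genes, 4.45% lay higher and 6.65% lower at that p. PHGDH, the entry enzyme of serine synthesis, measured 11.93 untreated and 11.42 at 48 h (-0.52 ± 0.10, adjusted p = 0.124), and ASNS, asparagine synthetase, 9.12 and 8.72 (-0.41 ± 0.10, adjusted p = 0.208). CTH, which makes cysteine, went the other way at 0.62 ± 0.12 (adjusted p = 0.124). Among 19 aminoacyl-tRNA synthetases, which charge transfer RNAs, 12 lay lower and 5 higher without overlap, where 27.2% of all genes lay lower and 19.6% higher. CARS1 was at -0.57 ± 0.09 (adjusted p = 0.0825), MARS1 at -0.38 ± 0.10, YARS1 at -0.33 ± 0.09 and AARS1 at -0.32 ± 0.10, none called.

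No lipid gene of the 2 lists was called. In fatty acid synthesis, 4 of 18 genes had an unadjusted p under 0.05, all higher, and the median was 0.10. Of all genes, 4.45% lay higher and 6.65% lower at that p. ELOVL1, an elongase, measured 9.85 untreated and 10.26 at 48 h (0.40 ± 0.09, adjusted p = 0.161), and ACSS2, which makes acetyl-CoA from acetate, was at 0.21 ± 0.09. In cholesterol synthesis and uptake the median over 19 genes was 0.06. Without overlap 8 lay higher and 5 lower, where 19.6% of all genes lay higher and 27.2% lower. IDI1 was at 0.35, HMGCS1 at 0.26 and PMVK, lowest of the list, at -0.20.

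Cell-cycle genes lay lower by small amounts. Of 34 mitotic genes, 26 lay lower without overlap between arrays and 1 higher, where 27.2% of all genes lay lower and 19.6% higher. At an unadjusted p under 0.05, 11 lay lower and none higher, against 6.65% and 4.45% of all genes. None was called. NEK2, a centrosome kinase, measured 9.10 untreated and 8.68 at 48 h (-0.41 ± 0.09, adjusted p = 0.163), and AURKB, a kinase of chromosome segregation, 9.90 and 9.56 (-0.33 ± 0.09, adjusted p = 0.256). Over the list the median was -0.18, and it stayed between -0.22 and -0.12 when any 1 of the 4 arrays was left out. The 37 DNA replication genes had a median of -0.10, with 19 lower and 8 higher without overlap. For 25 replication-dependent histone genes the median was -0.20, with 15 lower and 2 higher; H4C2 was at -0.53 ± 0.12 and H2BC12 at 0.48 ± 0.15, and near-identical copies make single histone genes uncertain. G1 cyclins, CDKs and CDK inhibitors had a median of 0.02 and no call.

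Interferon-stimulated genes also lay on the lower side. Of 28 measured, 6 had an unadjusted p under 0.05, all lower, 16 lay lower without overlap and 1 higher, and none was called. Of all genes, 6.65% lay lower at that p, and 27.2% lay lower and 19.6% higher without overlap. IFIT3, an antiviral effector, measured 7.50 and 7.36 untreated and 6.52 and 6.79 at 48 h (-0.78 ± 0.14, adjusted p = 0.104). RIGI, a sensor of viral RNA, was at -0.50 ± 0.10 (adjusted p = 0.155) and USP18, an inhibitor of interferon signalling, at -0.34 ± 0.09. TXNIP, a glucose-responsive inhibitor of thioredoxin, went from 10.90 and 10.81 to 10.33 and 10.27 (-0.56 ± 0.12, adjusted p = 0.174).

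Other lists had medians close to that of all genes and, beside GLRX, no call. Many of the 29 lysosome and autophagy genes are targets of TFEB, a factor that mTORC1 holds in the cytoplasm. In this list 4 lay higher and 1 lower at an unadjusted p under 0.05, with a median of 0.00. Of all genes, 4.45% lay higher and 6.65% lower at that p. WIPI1, an autophagosome factor, was at 0.44 ± 0.10 (adjusted p = 0.175) and CTSB, a lysosomal protease, at -0.28 ± 0.09. Platinum and drug handling genes held values on both sides: MT2A, a metallothionein, was at -0.44 ± 0.09 (adjusted p = 0.130) and ABCC1, a drug exporter, at 0.52 ± 0.12 (adjusted p = 0.175), over a list median of -0.04. Among growth factor receptors, FGFR3 measured 7.59 and 7.71 untreated and 8.26 and 8.23 at 48 h (0.60 ± 0.12, adjusted p = 0.135). In 28 mesenchymal genes DCN, a matrix proteoglycan, was at -0.49 ± 0.08 (adjusted p = 0.101) and SNAI2, a repressor of epithelial genes, at 0.62 ± 0.16 (adjusted p = 0.219), with no call. Of 28 measured NRF2, glutaredoxin and thioredoxin genes only GLRX was called, and GPX2, a glutathione peroxidase, was at -0.38 ± 0.13. EGR1 led the immediate early genes at -0.38 ± 0.13 (adjusted p = 0.342), and DNAJB1 the chaperones at -0.36 ± 0.09 (adjusted p = 0.189).

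These small shifts depend on where the arrays are centred. At an unadjusted p under 0.05, 819 genes lay higher and 1224 lower with the deposited values, a share of 40.1% higher; without the arrays titled 24 h they were 688 and 977. After centring each array on its median the counts were 1149 and 798, or 59.0% higher, and after quantile normalization 973 and 909. The medians of the lists named next kept their sign. Mitotic genes were at -0.14 after centring and -0.20 after quantile normalization, and histone genes at -0.17 and -0.23. Interferon-stimulated genes were at -0.08 and -0.07, and mitochondrial ribosomal protein genes at 0.16 and 0.10.

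**Figure D3:**
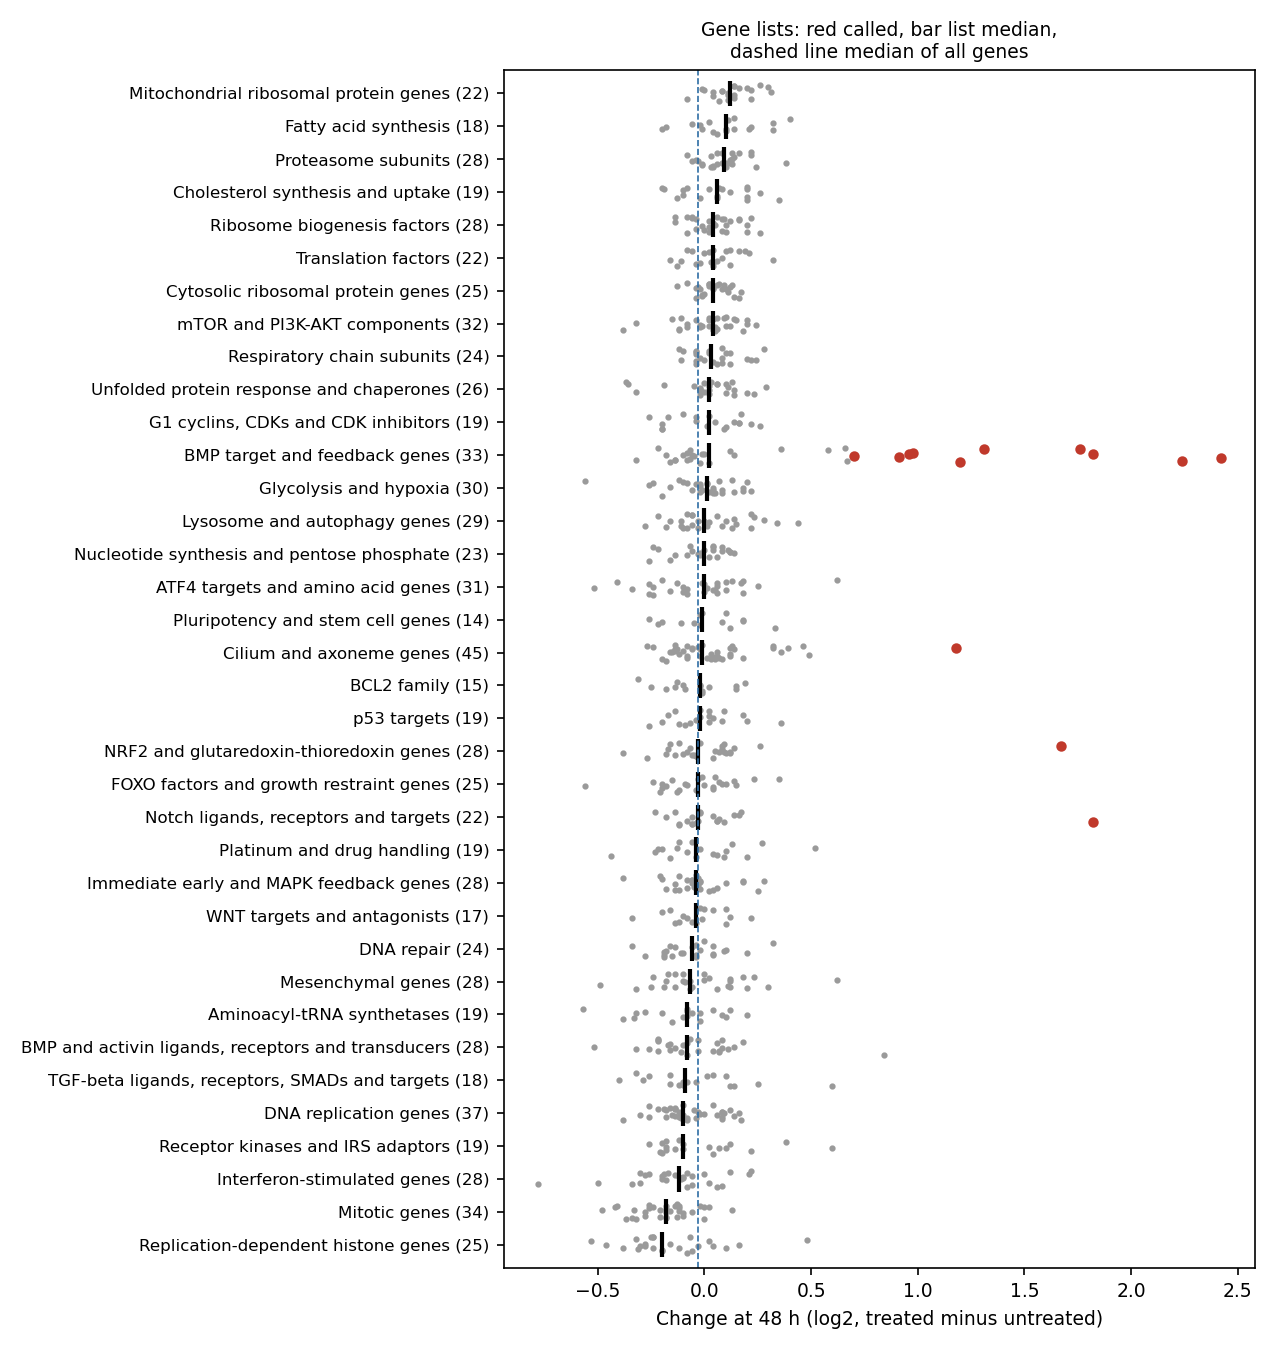
Change at 48 h (log2, treated minus untreated) of each measured member of the 36 pathway lists, with the number measured in brackets, called genes in red, the list median as a black bar and the median of all genes, -0.03, as a dashed line. List medians run from -0.20 for histone genes to 0.12 for mitochondrial ribosomal protein genes, and the called members are 10 BMP targets (HEY1 also stands in the Notch list), GLRX and CFAP221.

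Markers of other cell types showed no call. Leukocyte markers had a summed log2 intensity of 9.32 to 9.56 untreated and 9.35 to 9.45 at 48 h over 11 genes, endothelial markers 9.14 to 9.16 and at most 9.12 over 10, and neuronal markers 9.89 to 9.96 and 9.92 over 14. PTPRC, the pan-leukocyte gene, was at 3.99 and 3.88, below the lower quartile of every array. Ovarian, Mullerian and epithelial genes summed to 10.96 to 11.03 untreated and 10.84 to 10.87 at 48 h over 22 genes, with PAX8 at -0.44 (unadjusted p = 0.00698) and no call.

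Across the 4 groups, the arrays at 48 h held the highest group mean for 26 of the 30 genes that rose, where 15.8% of all genes had their highest mean at 48 h. The genes were chosen for high values on these same arrays at 48 h, which tilts any comparison of them with another group towards higher at 48 h, so the counts here and for the arrays titled 24 h are descriptions and nothing is read from them. Against A2780CP20, 25 of the 30 were called higher at 48 h and none lower; of all genes, 22.7% were called in either direction. The 5 without a call were SMAD9, CRIP2, SPHK1, GYS1 and SAMD11. SPHK1 was at 9.08 and 9.16 in A2780CP20 and GYS1 at 9.76 and 9.96, within 0.2 log2 units of the level at 48 h. Some genes held a middle level in A2780CP20. ID2 was at 9.49 and 9.46 there, 1.20 ± 0.09 below the level at 48 h, and ID1 at 9.49 and 9.55, 1.26 ± 0.09 below it. HEY1 (8.70 and 8.65), NOG (8.32 and 8.36) and CFAP221 (5.24 and 5.53) lay within 0.3 of untreated A2780.

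On the arrays titled 24 h the same genes parted. Of the 30, 22 were called higher at 48 h than at 24 h and none lower, with the same tilt from the choice of genes; of all genes, 31.0% were called in either direction. ID1 was at 10.61 and 10.62, and the difference from 48 h, 0.17, was not called (adjusted p = 0.178); ID3, ID4, SMAD9, GLRX, MFN1, CRIP2 and ZDHHC23 were likewise not called between these groups. ID2, at 9.50 and 9.52, was 1.16 lower than at 48 h. NOG was at 6.43 and 5.81 and OCA2 at 6.14 and 6.10 there, both below untreated A2780, and POU1F1 was at 8.83 and 8.96, above it. Of the genes that fell, SLC44A5 was lower still in A2780CP20 (5.56 and 5.86) and on the arrays titled 24 h (5.09 and 5.06). These groups differ from the arrays at 48 h at 4175 and 5702 genes, so the single levels are given as measured.

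**Figure D4:**
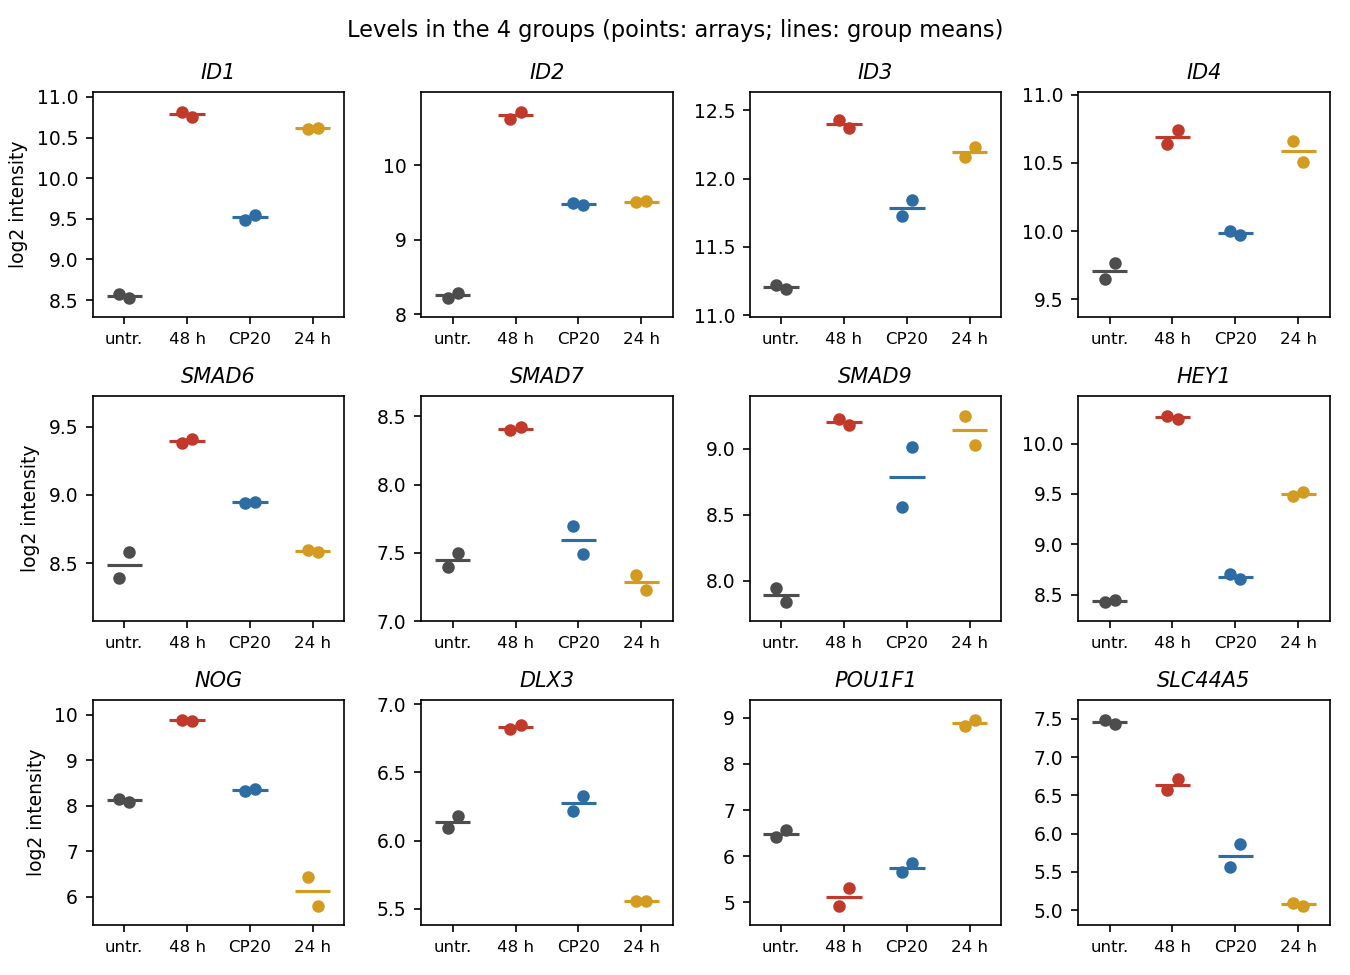
Log2 intensity of 12 called genes on the 2 arrays of each group (untr., untreated A2780; 48 h, temsirolimus 48 h; CP20, A2780CP20; 24 h, arrays titled temsirolimus 24 h), with lines at group means and axes that do not start at 0. ID1, ID3, ID4 and SMAD9 were not called between 48 h and 24 h, whereas NOG and DLX3 at 24 h lie below untreated A2780 and POU1F1 lies above it. SMAD7 at 24 h was not called against untreated A2780, at -0.16 ± 0.10.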

How the data were processed

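The deposited values were used as they stand: 33297 probe sets on 8 arrays between 1.8 and 14.99 with near-equal medians, read as log2 intensities from that range. Per the labels' protocols, the authors hybridized biotin-labelled material from total RNA. The submitters' processing notes name Partek, and the sources used here do not give the background correction or normalization. Values are rounded to 0.01. The number of arrays limits the precision. Of the probe sets, 19460 had 1 gene symbol in the platform annotation, 1754 several and 12083 none here; the brightest by mean over 8 arrays stood for each of 18417 genes, of which 18389 were matched to RefSeq.

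limma 3.58.1 in R 4.3.3 fitted 1 coefficient per group to 8 arrays (4 residual and 4.48 prior degrees of freedom), tested two-sided, and p-values were adjusted over all genes (Benjamini-Hochberg); the procedure was tested on simulated data. Members and the 41 gene lists (36 of pathways, 5 of cell markers) were chosen with earlier results of these data known. Named were every called gene, up to 10 uncalled genes per direction by size with p under 0.05 and no overlap, up to 4 per list by p, and a fixed set; Y-linked genes, small RNAs and loci without a proper name were not named. The DLX and MSX relatives and some BMP list members were added for context.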

Additional observations from a re-analysis of the deposited data

Results flagged for a closer look

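The change at 48 h differed from that at 24 h (48 h minus 24 h, limma, adjusted p under 0.05) for 25 of the 33 called genes, where 31.0% of all genes differed; the genes were chosen for their values on the same arrays at 48 h, which tilts this count. The arrays titled 24 h stood apart from all others, and their part in these differences was not tested. Among BMP and ID genes the differences were 3.76 for NOG, 1.27 for DLX3, 1.16 for ID2, 1.12 for SMAD7, 0.80 for SMAD6 and 0.76 for HEY1, all higher at 48 h. Among the others that rose at 48 h they were 3.46 for OCA2, 2.21 for LTK, 2.08 for SSBP3, 2.04 for RAB31, 1.78 for NR4A2, 1.45 for TUBA3FP, 1.14 for ACTN3, 1.10 for CFAP221, 0.98 for TMEM14A and 0.94 for LRRC32. Smaller differences were 0.86 for AKAP5, 0.76 for KAZALD1, 0.64 for SAMD11, 0.50 for CORO1A, 0.41 for SPHK1 and 0.36 for GYS1. Of the genes that fell, POU1F1 differed by -3.78, SLC44A5 by 1.56 and B3GALT2 by 0.42.

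Of the 13837 probe sets that carry no symbol or several, 10 were called when every probe set was tested together (23 calls in all), each higher at 48 h than in untreated cells. Probe set 8113037, which is annotated to several symbols and so is not named, rose by 1.08 ± 0.11 from 3.94 and 3.88 to 5.12 and 4.86 (adjusted p = 0.0498), at a level where signal over background is not known. The unnamed probe sets were 7893318 (2.20), 7934896 (1.87), 7893882 (1.61), 7894321 (1.60), 8057742 (1.20), 8046518 (1.16), 7893130 (1.08), 7893943 (0.98) and 7952305 (0.92). Except for 7952305 and 8113037, the A2780CP20 arrays also lay above both untreated arrays. Probe set 7893318 measured 4.29 and 4.50 untreated and 6.70 and 6.49 at 48 h. It was at 6.12 and 6.23 in A2780CP20 and at 6.09 and 6.07 on the arrays titled 24 h.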

How the results depend on the processing

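All 33 called genes kept their direction in those of the 15 alternative fits that tested them, and ID1, ID2, HEY1 and TUBA3FP were called in every one. The count of 33 (30 higher, 3 lower) ranged from 4 to 6 (4 to 5 higher, 0 to 1 lower) when 1 of the 4 arrays was left out: 4 without untreated replicate 1, 5 without untreated replicate 2, 4 without 48 h replicate 1 and 6 without 48 h replicate 2, all from limma, each with 1 lone array assumed to vary like the other groups; the unadjusted p was under 0.05 for 475 to 693 genes higher and 606 to 1093 lower. GLRX was called without untreated replicate 2, and ID3 and POU1F1 without 48 h replicate 2. It was 57 (48 and 9) without the A2780CP20 arrays, 68 (59 and 9) with an intensity trend in the prior, 57 (49 and 8) at an adjusted p under 0.10 and 12 (11 and 1) with at least 2-fold added. The lower calls were 1 with median centring, with a robust prior, without the arrays titled 24 h and, chosen after seeing the data, without those arrays and with the trend. They were 6 without the dimmest 25% of genes and 0 with every probe set tested (limma). The cause was not tested. The deviations of arrays with the same replicate number correlated at 0.117 between the 2 groups; with the replicate number as a block 35 genes were called, 31 of them among the 33. Of 834 values of single genes under alternatives none reversed, but 143 lost their call and 22 gained one. Of 328 list medians 76 moved by over 1 SD. With the reported settings the smallest called change was 0.67 log2 units.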
